A study of Mus musculus with 24 samples.

Results

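The nuclear genes of oxidative phosphorylation were followed across 24 RNA-seq libraries of cultured mouse cortical neurons. Members were chosen by name from the GENCODE M21 annotation: protein-coding genes outside the mitochondrial chromosome whose symbol starts with Nduf, Uqcr, Atp5 or Cox followed by a digit from 4 to 8, together with Sdha, Sdhb, Sdhc and Sdhd. The rule took no expression value, and it found 94 of the 55177 genes summed. They comprised 36 subunits of complex I, 8 complex I assembly factors (the Ndufaf genes), 4 subunits of complex II, 8 of complex III, 20 of complex IV and 18 of complex V. Ndufa4 and Ndufa4l2 were counted with complex IV, where the Ndufa4 protein resides. The complex V entries include a second annotated copy of Atp5o, which drew 7 estimated counts in all libraries together.

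Oxidative phosphorylation takes place in the inner membrane of the mitochondrion. Complexes I and II feed electrons from NADH and succinate into the respiratory chain, complex III passes them to cytochrome c, complex IV hands them to oxygen, and complex V, the ATP synthase, uses the proton gradient built by complexes I, III and IV to make ATP. Neurons depend on this ATP to restore ion gradients after electrical activity. All subunits but a few hydrophobic core proteins are encoded in the nucleus, and the transcription factors NRF1, GABP (an ETS-family factor) and YY1 are known to bind the promoters of many of these genes.

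Promoter windows are printed here because some motifs were more frequent in member windows than in all windows, and the name rule did not use them. RefSeq promoters on build GRCm38.p6, each 250 bases before to 50 bases after a gene's start, were at hand for 74 of the 93 member symbols (79 windows). Each of 3 motifs was searched on both strands. The NRF1 motif GCGCA, any base, GCGC (reverse complement GCGC, any base, TGCGC) lay in 20 member windows, or 25.3%, against 4.6% of all 32851 windows of the same length. The ETS motif CCGGAAG (reverse complement CTTCCGG) lay in 18 member windows, or 22.8%, against 8.86% of all. The YY1 motif AAGATGG (reverse complement CCATCTT) lay in 11 member windows, or 13.9%, against 6.34% of all. The ETS and YY1 motifs can share the letters AAG. At least 1 of the motifs was found in 53.2% of member windows and 18.0% of all windows. The median GC content was 57.7% in member windows and 52.7% in all, and its part in these shares was not tested.

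The position of the matches differed by motif. Before the gene start alone, NRF1 matches were in 19.0% of member windows against 3.74% of all, and ETS matches in 17.7% against 6.91%. The YY1 motif lay wholly before the start in 1 of its 11 member windows, which is 1.27% of member windows against 4.49% of all. By complex, an NRF1 match was found for 7 of 32 complex I subunits with a window, 2 of 7 assembly factors, 2 of 3 complex II, 1 of 5 complex III, 1 of 14 complex IV and 6 of 13 complex V genes.

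The following stretches precede the starts of 5 members and hold no exon annotated in GENCODE M21. They are written on the strand of the gene with motif matches in capitals. Cox6a1 holds 2 NRF1 matches and Atp5h holds 1. Uqcrh and Uqcr11 hold 1 ETS match each, 10 and 66 bases before the start. Ndufb2 holds none, and Uqcrh and Ndufb2 are shown because they return in the comparisons below. The printed set is not typical, since most exon-free stretches of this kind before member starts held no match.
Cox6a1: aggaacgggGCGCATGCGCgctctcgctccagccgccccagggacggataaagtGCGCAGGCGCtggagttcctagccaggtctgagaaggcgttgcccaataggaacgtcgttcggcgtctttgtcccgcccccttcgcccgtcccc
Atp5h: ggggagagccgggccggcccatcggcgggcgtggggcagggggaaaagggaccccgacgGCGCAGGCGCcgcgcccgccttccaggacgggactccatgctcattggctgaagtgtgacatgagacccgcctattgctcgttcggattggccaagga
Uqcrh: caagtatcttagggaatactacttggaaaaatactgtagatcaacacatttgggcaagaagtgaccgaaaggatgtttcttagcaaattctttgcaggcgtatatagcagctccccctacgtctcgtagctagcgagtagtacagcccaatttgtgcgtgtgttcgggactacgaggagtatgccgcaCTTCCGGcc
Uqcr11: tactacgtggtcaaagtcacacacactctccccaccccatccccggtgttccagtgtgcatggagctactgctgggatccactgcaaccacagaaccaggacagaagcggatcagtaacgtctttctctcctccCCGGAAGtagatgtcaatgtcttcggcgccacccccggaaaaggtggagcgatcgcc
Ndufb2: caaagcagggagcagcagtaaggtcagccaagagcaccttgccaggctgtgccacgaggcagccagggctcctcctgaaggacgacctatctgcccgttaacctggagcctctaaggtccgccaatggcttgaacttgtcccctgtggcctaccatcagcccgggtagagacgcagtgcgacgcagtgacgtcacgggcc
In GRCm38.p6 the stretches are chr5:115348982-115349129 on the minus strand (Cox6a1, a ubiquitous complex IV subunit), chr11:115419963-115420119 on the minus strand (Atp5h, a stalk subunit of the ATP synthase), chr4:116075072-116075268 on the minus strand (Uqcrh, the hinge protein of complex III), chr10:80406831-80407021 on the minus strand (Uqcr11, a small complex III subunit) and chr6:39592365-39592564 on the plus strand (Ndufb2, an accessory complex I subunit). A match describes the letters only.

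All cultures came from cortex of embryos at day 16.5, were silenced overnight with 1 µM tetrodotoxin (a sodium channel blocker) and 100 µM D-AP5 (an NMDA receptor blocker), and were taken either at rest or after 30 min in 50 mM KCl, which depolarizes the membrane. At 7 days in vitro (DIV7), wild-type neurons with 0.1% DMSO gave 2 resting and 2 KCl libraries of poly(A) RNA. At DIV18, libraries were made from total RNA after ribosomal RNA removal, so culture day and library type cannot be told apart. The DIV18 cultures carried a non-targeting CRISPR guide (NT, 2 at rest and 2 with KCl), or a guide that knocks out Smarcc2, a subunit of BAF chromatin remodelling complexes, with 1 of 4 added constructs. These were an empty vector (KO with vector, 3 and 3), wild-type Smarcc2 (KO with WT, 2 and 3), Smarcc2 with the S586E substitution (3 at rest only) or Smarcc2 with the S586A substitution (2 with KCl only). According to the protocol, the cortex of 1 embryo was 1 biological replicate. The labels do not say that every number stands for another embryo, so p-values measure the spread between these samples.

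Summed estimated counts per library lay between 24536056 and 30135576 at DIV7 and between 14510199 and 24024959 at DIV18. Smarcc2 was examined first. Its level (CPM, counts scaled to a common library total after TMM normalisation) was 237 to 265 in resting NT, 47.1 to 64.1 in resting KO with vector, 756 to 816 with WT added back and 1164 to 1276 with S586E. Under KCl it was 274 to 283 in NT, 47.5 to 60.0 with vector, 737 to 1089 with WT and 1303 to 1340 with S586A. The libraries thus followed their labels for knockout and addback, and the added constructs stood above the NT level. Summed counts cannot tell the substituted forms from WT. S586E and S586A also stood above WT (log2 difference 0.64 and 0.54, adjusted p of 0.114 and 0.338 by edgeR). In the comparisons with WT, construct level and substitution therefore cannot be told apart. Markers of neurons dominated the other lists: the summed CPM of 8 neuronal markers was 3954 to 5668 per DIV18 library, against 727 to 1739 for 6 astrocyte markers and 106 to 213 for 8 oligodendrocyte lineage markers. In bulk RNA, fewer cells of a type and less RNA per cell cannot be told apart.

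Levels between genes are compared in TPM (estimated counts divided by effective length and scaled to a fixed library total). In resting NT neurons the median member had a TPM of 74.1 in complex I, 80.3 in complex II, 133 in complex III, 170 in complex IV and 152 in complex V, taken over members above 1 TPM. The assembly factors, which act on complex I without staying in it, had a median of 10.2 TPM. The members with the highest TPM were Atp5b (526), the catalytic beta subunit of the ATP synthase, Cox4i1 (414), a core-bound subunit of complex IV, Uqcr11 (210), Ndufa3 (183), a small accessory subunit of complex I, Sdhc (123), a membrane anchor of complex II, and Ndufaf3 (20.2) among assembly factors. Within complex I the TPM ran from 30.5 for Ndufb2 to 183 for Ndufa3.

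In resting DIV7 neurons the order of the complexes was similar, and the scale of TPM was higher throughout. The medians were 169 TPM in complex I, 154 in complex II, 247 in complex III, 363 in complex IV and 321 in complex V, with 34.6 for the assembly factors. Atp5b was again the highest (1182), followed by Cox6a1 (997), and the highest member of complex III was Uqcrq (465). Together the members took 2.15% ± 0.00821 (SD, n = 2) of all TPM in resting DIV7 libraries and 1.00% ± 0.0183 (SD, n = 2) in resting NT libraries at DIV18. Their summed CPM, scaled within each day, was 7155 ± 66.9 (SD, n = 2) and 7430 ± 139 (SD, n = 2). The higher level at DIV7 was thus seen in TPM and not in CPM. The share of the members' own TPM that went to each complex differed little: complex I took 28.7% at DIV7 and 28.2% in NT, complex II 2.88% and 3.40%, complex III 9.97% and 10.5%, complex IV 28.4% and 29.4%, and complex V 28.8% and 27.6%.

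**Figure D1:**
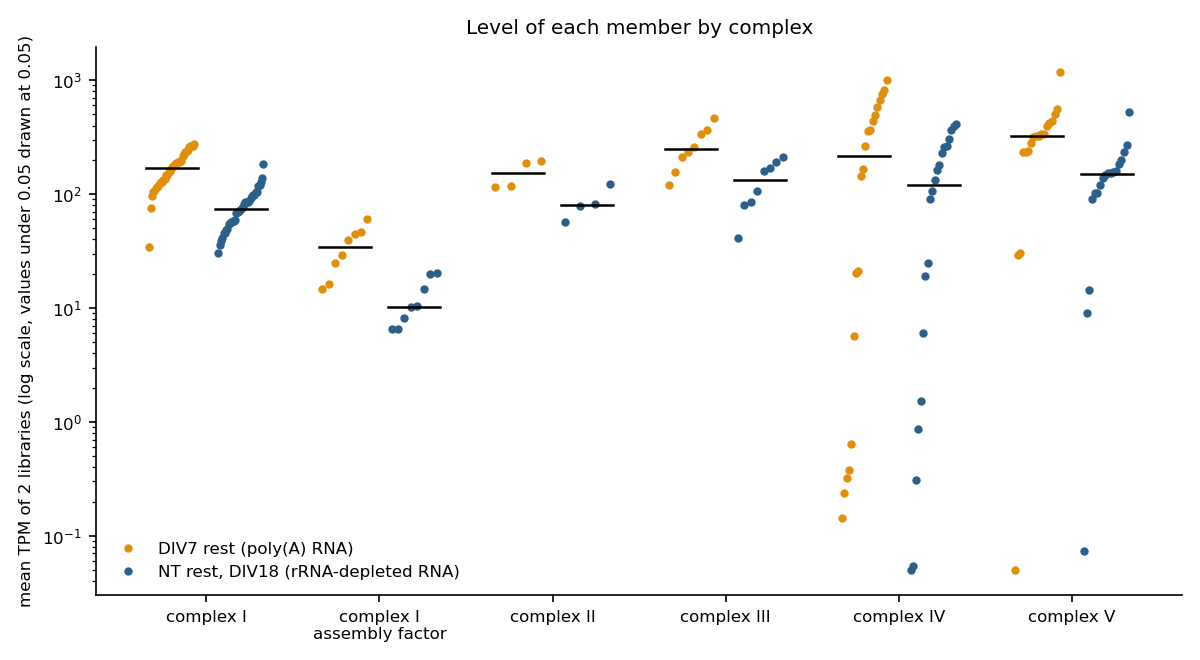
Mean TPM of each member (log axis, values under 0.05 drawn at 0.05) by complex, in resting DIV7 neurons and resting NT neurons at DIV18 (2 libraries each, 1 point per member). Complexes III, IV and V sit above complex I, with medians of 133, 170 and 152 TPM against 74.1 TPM in NT, and the assembly factors lie lowest at 10.2 TPM. These medians are taken over members above 1 TPM, while the bars drawn are medians over all members of a complex.

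Where a subunit has several gene copies, 1 copy or 2 copies carried the family in these neurons. Cox4i1, Cox8a, Cox7b and Ndufa4 each held over 99% of the TPM of their families in all 24 libraries. Their paralogues are best known from other tissues: Cox4i2 (from lung) drew 10 estimated counts over all DIV7 libraries and 93 over all DIV18 libraries, Cox8b (from heart and muscle) 16 and 26, Cox8c (from testis) 2 and 0, Cox7b2 10 and 60, and Ndufa4l2 24 and 314. The 0 counts of Cox8c allow no more than 3 counts over the DIV18 libraries, counting error alone considered. Cox6a1 held a median of 98.2% of its family at DIV7 and 94.1% at DIV18, with Cox6a2, the form of heart and skeletal muscle, at 1.80% (1.60% to 2.23%) and 5.92% (3.81% to 13.5%). In the Cox7a family, Cox7a2 held a median of 63.4% at DIV7 and 58.8% at DIV18, and Cox7a2l, which joins complexes III and IV in supercomplexes, held 34.8% and 38.8%.

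The 3 genes for the c-ring of the ATP synthase encode the same mature protein. Atp5g1 held a median of 42.6% of their TPM at DIV7 (41.3% to 43.8%) and 54.8% at DIV18 (50.0% to 59.5%), while Atp5g3 held 54.8% (53.5% to 55.6%) and 43.4% (38.7% to 47.3%). The 4 DIV7 libraries therefore all had more Atp5g3 than Atp5g1, and the 20 DIV18 libraries all had more Atp5g1 than Atp5g3. No test was made, since day and library type cannot be told apart. Atp5g2 was the minor copy, with 2.70% and 2.13%. Its lowest library, replicate 3 of KO with vector under KCl, had 0.736 TPM, against 11.3 TPM in the highest DIV18 library.

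Across the DIV18 libraries most members varied little. The SD of log2(CPM + 0.5) over the 20 libraries had a median of 0.14 over the 90 members tested there, and it was under 0.2 for 81 of them. The most variable were Atp5g2 (0.63), Cox6a2 (0.53), Ndufa4l2 (0.43), Cox6b2 (0.37), Cox4i2 (0.34) and Cox7a1 (0.33), all of them minor copies of their families. Atp5g2 and Cox6a2 were the 2 members over 0.5.

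After the filter on low counts, 88 members were tested at DIV7 and 90 at DIV18. Cox8b, Cox8c, Cox7b2 and the second Atp5o entry were untested on both days, and Cox4i2 and Ndufa4l2 at DIV7. A member is called where the Benjamini-Hochberg adjusted p of edgeR's quasi-likelihood test, adjusted over all genes tested, is under 0.05. Percentages over all genes tested are given beside the members' counts as background.

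The first question was whether 30 min of KCl altered the members. At DIV7, Atp5b stood at 917 and 892 CPM at rest and at 984 and 982 CPM with KCl, so the groups did not overlap. Ndufaf7, a methyltransferase that assists complex I assembly, stood at 32.5 and 34.2 CPM at rest and 28.6 and 27.4 CPM with KCl, again without overlap. Neither passed edgeR's test: the log2 difference was 0.12 ± 0.0341 (SE) for Atp5b with an adjusted p of 0.0536, and -0.25 ± 0.0705 for Ndufaf7 with an adjusted p of 0.052. The next member by p was Atp5f1, of the peripheral stalk of the ATP synthase, at 0.12 ± 0.0453 with an adjusted p of 0.108.

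Of the 88 members, edgeR called 0, where 17% of all genes were called. An unadjusted p under 0.05 was reached by 4 members, or 4.55%, against 31.6% of all genes, and DESeq2 called 0 members against 11.2% of all genes. The median log2 difference of the members was 0.03, that of all genes was -0.00, and 60 of 88 members were positive. The libraries did not overlap for 32 members with higher values under KCl (28.5% of all genes did the same) and for 7 with lower values (30.7% of all genes). By complex the medians were 0.03 (I), 0.04 (assembly factors), 0.05 (II), 0.02 (III), 0.06 (IV) and 0.01 (V). All members but 6 were thus measured in a comparison that called 3371 genes, and none was among them. Other settings called between 0 and 4 members: the replicate block called Atp5b, Atp5f1, Ndufa6 and Ndufaf7, and the length trend offsets called Atp5b and Atp5f1. The share of all genes called under those settings is not given here.

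At DIV18 the response to KCl was measured in NT, in KO with vector and in KO with WT, and no member was called in any of them. In NT neurons the median log2 difference was 0.02, 54 of 90 members were positive, 0 members had an unadjusted p under 0.05 (4.33% of all genes), and edgeR called 0 members against 0.00955% of all genes. DESeq2 called 0 members against 0.0716% of all genes. The lowest p-values belonged to Ndufa4l2 (log2 difference -1.24), Ndufa1 (0.25) and Ndufs1 (0.16), all with an adjusted p of 1.0.

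In KO with vector, 77 of 90 members had lower values under KCl and the median log2 difference was -0.17, against -0.00 for all genes. EdgeR called 0 members against 0.0716% of all genes, and DESeq2 called 0 against 0.244%. An unadjusted p under 0.05 was reached by 28 members, or 31.1%, all with lower values, against 10.3% of all genes in either direction and 4.88% with lower values. That count was 16 without resting replicate 1 and 15 without resting replicate 3, while the median stayed between -0.20 and -0.14 whichever library was left out. Ndufb2 stood at 19.2, 16.4 and 19.6 CPM at rest and at 13.2, 13.5 and 13.2 CPM with KCl, without overlap. Its log2 difference was -0.47 ± 0.112 (SE), with an adjusted p of 0.207 by edgeR. Atp5j2, a subunit of the ATP synthase membrane part, followed at -0.33 ± 0.0832 (adjusted p of 0.262) and Ndufb8, an accessory subunit of the complex I membrane arm, at -0.27 ± 0.0796 (adjusted p of 0.275).

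The complexes had similar medians in this comparison, apart from complex II: -0.15 for complex I, -0.11 for the assembly factors, -0.03 for complex II, -0.17 for complex III, -0.19 for complex IV and -0.18 for complex V. The libraries did not overlap for 35 members with lower values (7.49% of all genes did so) and for 2 with higher values (8.21%). In KO with WT, 77 of 90 members also had lower values under KCl, the median was -0.11, and edgeR called 0 members against 0.043% of all genes. There 5 members, or 5.56%, had an unadjusted p under 0.05, against 4.97% of all genes, and DESeq2 called 0 against 0.153%. Its libraries did not overlap for 24 members with lower values (2182 of 20940 genes) and for 1 with higher values (2371 genes). Atp5j2 (-0.29, adjusted p of 0.784), Ndufb11 (-0.29, 0.965) and Uqcrc1, a core protein of complex III (-0.19, 0.969), had the lowest p-values by edgeR. With offsets for each library's trend with transcript length the median in KO with WT was -0.02.

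Whether the responses differed was tested directly. Compared with NT, the response in KO with vector was negative for 75 of 90 members with a median of -0.19, and edgeR called 0 members and 0% of all genes. An unadjusted p under 0.05 was reached by 12 members, or 13.3%, against 8.81% of all genes, and DESeq2 called 0 members against 0.043%. Ndufb2 had the lowest p (-0.67 ± 0.176, adjusted p of 0.472 by edgeR), followed by Uqcrfs1, the Rieske iron-sulfur protein of complex III (-0.49), and Uqcrh (-0.37). For the response of KO with WT against that of KO with vector, the median was 0.04, and 0 members were called or reached an unadjusted p under 0.05 (0% and 3.67% of all genes by edgeR). DESeq2 also called 0 members. The lowest p-values were those of Ndufa6 (-0.24), Sdhc (-0.18) and Atp5s (-0.34), each with an adjusted p of 1.0 by edgeR. For the response at DIV7 against that of NT at DIV18, the median was 0.02, 0 members were called against 1.82% of all genes, 1 member reached an unadjusted p under 0.05 (11.2% of all genes), and DESeq2 called 0 against 2.55%. The lowest p-values there were those of Ndufa4l2 (2.14, adjusted p of 0.388 by edgeR), Sdhd (0.21, 0.638) and Ndufaf6 (0.37, 0.678).

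The next question was how the members differed between KO with vector, in which Smarcc2 RNA was reduced but still detected, and NT. At rest, Ndufb2 was higher, and Ndufs7 and Cox4i2 were lower. Ndufb2 (ENSMUSG00000002416.13, chr6:39592574-39603382 on the plus strand of GRCm38) stood at 12.7 and 12.9 CPM in NT and at 19.2, 16.4 and 19.6 CPM in KO with vector. The groups were apart, and the log2 difference was 0.52 ± 0.125 (SE) with an adjusted p of 0.0186 by edgeR. Ndufb2 was not back at the NT level with added Smarcc2: its resting mean was 16.8 CPM with WT and 17.7 CPM with S586E. For WT against vector its log2 difference was -0.13 (adjusted p of 0.744 by edgeR). Ndufs7 (ENSMUSG00000020153.14, chr10:80249121-80256794 on the plus strand), the core subunit that holds the iron-sulfur cluster next to the quinone site, stood at 54.6 and 61.0 CPM in NT and at 39.9, 47.9 and 41.5 CPM in KO with vector. These groups were apart too, with a log2 difference of -0.42 ± 0.113 and an adjusted p of 0.0331 by edgeR.

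Cox4i2 (ENSMUSG00000009876.13, chr2:152754173-152765037 on the plus strand) rests on few reads: 14 and 11 estimated counts in resting NT and 2, 1 and 0 in resting KO with vector. Its fitted log2 difference was -3.16 ± 0.882 with an adjusted p of 0.0406 by edgeR. From the summed counts (3 against 25, scaled by library totals) the ratio was 0.102, with an exact 95% interval of 0.0197 to 0.334 that covers counting error only. Under KCl the ratio of KO with vector to NT was 0.415 (6 against 12 counts), with an interval of 0.128 to 1.19.

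These 3 calls were 3.33% of the members, against 5.9% of all genes, and 12 members, or 13.3%, had an unadjusted p under 0.05, against 20.4%. The median log2 difference was 0.02, as for all genes. No call was left when resting NT replicate 1 or 2, or resting KO with vector replicate 1, was left out. Without KO with vector replicate 2 the calls were Ndufb2 and Ndufs7, and without replicate 3 the only call was Sdhb. DESeq2 called Ndufb2 and Ndufs7 and 7.83% of all genes. A fit of these 2 groups alone called 0 members, and effective length offsets left Ndufs7 as the only one.

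With KCl, most members had lower CPM in KO with vector than in NT, and Uqcrh alone passed the test. Uqcrh (ENSMUSG00000063882.12, chr4:116066965-116075071 on the minus strand) stood at 72.3 and 78.3 CPM in NT and at 59.8, 59.3 and 58.2 CPM in KO with vector. The groups were apart, with a log2 difference of -0.35 ± 0.0882 (SE) and an adjusted p of 0.0416 by edgeR. Cox6a1 stood at 165 and 170 CPM in NT and at 144, 127 and 125 CPM in KO with vector, also apart (-0.35 ± 0.0991, adjusted p of 0.0677 by edgeR). Ndufa12, an accessory subunit of the complex I matrix arm, stood at 41.8 and 37.7 CPM against 29.5, 26.0 and 35.5 CPM, apart as well (-0.39 ± 0.115, adjusted p of 0.0756).

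The single call was 1.11% of the members, against 2.67% of all genes, and 16 members, or 17.8%, had an unadjusted p under 0.05, against 16.6% of all genes. The direction was more uneven than that share: 73 of 90 members were negative, and the median log2 difference was -0.15 against 0.02 for all genes. The medians were -0.13 for complex I, 0.02 for the assembly factors, -0.10 for complex II, -0.17 for complex III, -0.20 for complex IV and -0.18 for complex V. The libraries did not overlap for 43 members with lower values (18.5% of all genes) and for 4 with higher values (17.3%). DESeq2 called 4 members lower, Atp5b, Cox6a1, Ndufa12 and Uqcrh, where it called 4.5% of all genes in either direction and 3.27% lower. Uqcrh was no longer called when any single library of either group was left out, and without KO with vector replicate 3 the only call was Ndufa12. Without NT replicate 2 the number of members with an unadjusted p under 0.05 was 5 in place of 16.

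Summed over all members, the 3 libraries of KO with vector under KCl were the lowest of the 20 DIV18 libraries. Their sums ran from 6673 to 6754 CPM (mean 6716 ± 40.9, SD, n = 3), and the next lowest library, of resting KO with vector, was at 7099 CPM. Resting KO with vector had 7471 ± 327 CPM (n = 3), resting NT 7430 ± 139 (n = 2), NT with KCl 7580 ± 329 (n = 2) and KO with WT with KCl 7216 ± 31.3 (n = 3). The same order held for complex I (highest of the 3 at 1791 CPM, lowest other library at 1822), complex III (654 and 671), complex IV (1373 and 1464) and complex V (2423 and 2504). Complex II and the assembly factors overlapped with other groups. The third replicate had the fewest counts of the DIV18 libraries (14510199) and stood apart in effective length, whose median lay 193 bases under the transcript length against 172 to 182 bases in the other DIV18 libraries. The first and second replicates (6754 and 6673 CPM) also lay below every other group. As a share of all deposited TPM the order was not kept. The members took 0.947%, 0.873% and 0.946% in KO with vector under KCl, and from 0.904% to 0.987% in resting KO with vector. Group means on that scale were 0.852% ± 0.113 (SD, n = 2) in resting KO with WT and 1.00% ± 0.0183 (n = 2) in resting NT. In NT with KCl the mean was 1.00% ± 0.0277 (n = 2). No test was made on these sums.

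**Figure D2:**
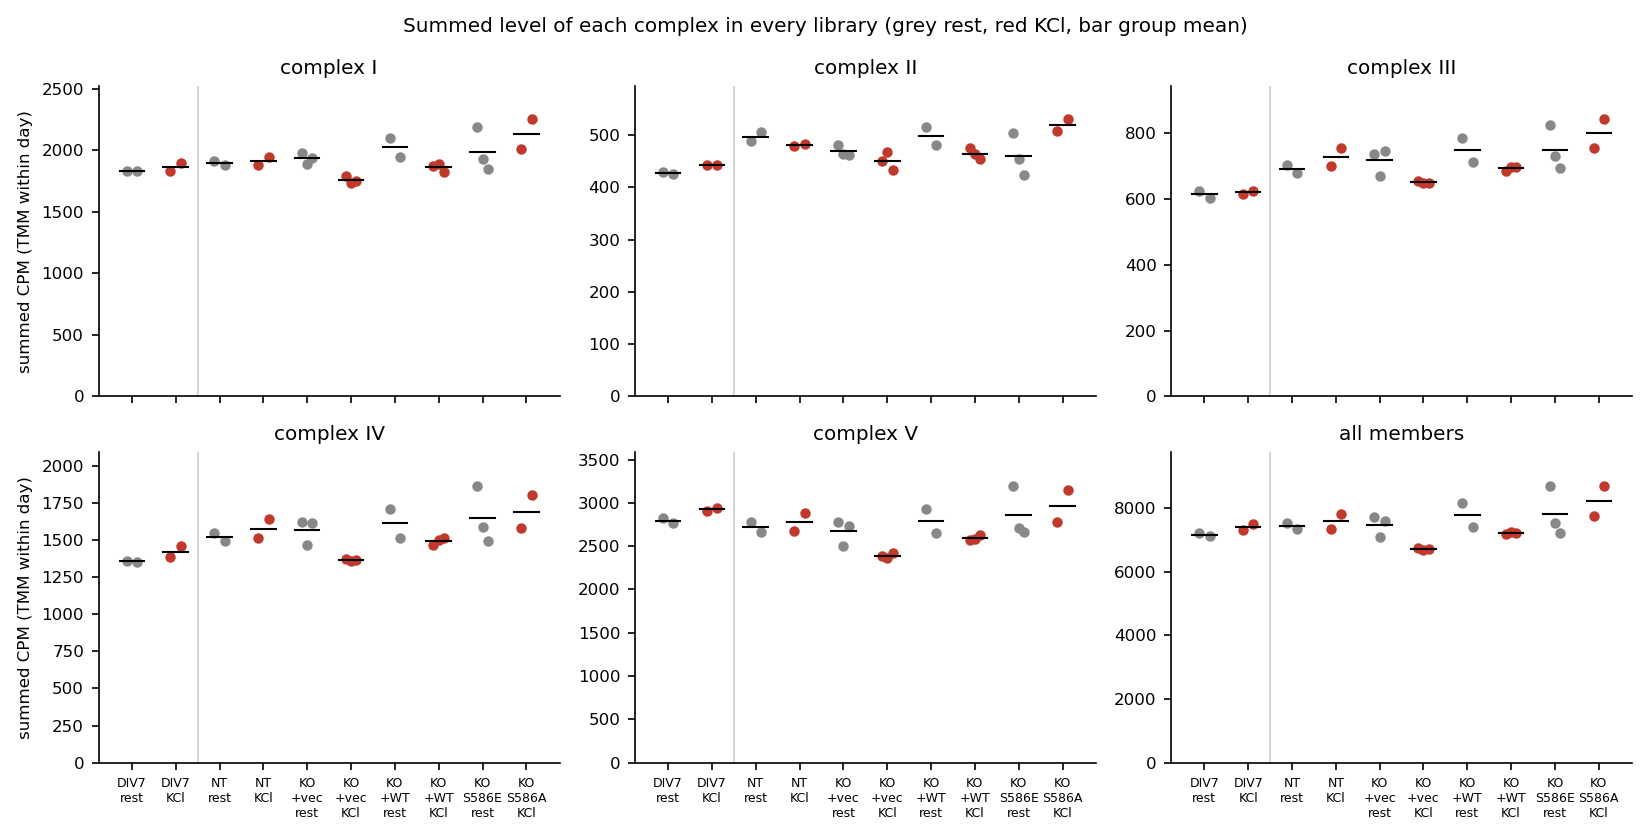
Summed CPM of the members of each complex, 1 point per library and 1 column per group, with bars at the group means, grey at rest and red with KCl. In complexes I, III, IV and V the 3 libraries of KO with vector under KCl lie below all other DIV18 libraries, at most at 1791, 654, 1373 and 2423 CPM.

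Markers of other cell types were also called beside these differences. In resting KO with vector against NT, 4 of 8 oligodendrocyte lineage markers (Sox10, Cspg4, Pdgfra and Olig1), 1 of 6 astrocyte markers (Slc1a2), Csf1r of microglia and 3 of 4 proliferation genes were called lower by edgeR, and Sox10 was at 0 in all 3 KO with vector libraries. Under KCl, 3 of 8 oligodendrocyte lineage markers, 3 of 6 astrocyte markers (Slc1a2, Aqp4 and S100b) and the neuronal marker Snap25 were called lower. The summed neuronal markers ran from 4670 to 5018 CPM in NT and from 3954 to 4258 CPM in KO with vector under KCl, and the summed astrocyte markers from 1253 to 1739 and from 727 to 859 CPM. At rest the neuronal markers ran from 4708 to 4739 and from 4326 to 4982 CPM, and the astrocyte markers from 1324 to 1573 and from 896 to 1228 CPM. Members have short transcripts, with a median effective length of 507 bases at DIV18 against 2098 for all genes tested. The length trend of all genes, read at the members' lengths in log2 units, overlapped at rest (-0.02 and 0.03 in NT, -0.03 to -0.01 in KO with vector) and under KCl was -0.04 in both NT libraries and -0.04, -0.06 and -0.09 in KO with vector. The part of cell makeup in the member differences was not tested.

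Adding wild-type Smarcc2 back was compared with the empty vector. At rest the median log2 difference was 0.05 (-0.069 with length trend offsets), 67 of 90 members were positive, and edgeR called 0 members against 0.0143% of all genes. An unadjusted p under 0.05 was reached by 8 members, or 8.89%, against 11.1% of all genes, and DESeq2 called 0 against 0.85%. Ndufs7, at 53.7 and 58.6 CPM with WT and at 39.9, 47.9 and 41.5 CPM with vector, did not overlap and had the lowest p (0.38 ± 0.113, SE, adjusted p of 0.214 by edgeR). Sdhc (0.23 ± 0.0727, adjusted p of 0.242) and Ndufa7, an accessory complex I subunit (0.33 ± 0.110, 0.274), came next. The vector libraries also enter the comparison with NT above, so these values are not independent of it: for Ndufs7 the resting NT libraries stood at 54.6 and 61.0 CPM. The median was -0.02 when resting WT replicate 1 was left out and 0.13 when replicate 2 was.

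Under KCl, 79 of 90 members were positive with WT added back, with a median of 0.09 against 0.01 for all genes. EdgeR called 0 members against 0.00955% of all genes, 4 members, or 4.44%, had an unadjusted p under 0.05 (3.99% of all genes), and DESeq2 called 0 against 0.0287%. Sdhb, the iron-sulfur subunit of complex II, had the lowest p: it stood at 93.0, 82.6 and 89.8 CPM with WT and at 74.8, 76.8 and 78.7 CPM with vector, without overlap (0.20, adjusted p of 0.999 by edgeR). Uqcrh stood at 64.0, 65.0 and 73.0 CPM with WT, above the 3 vector libraries (59.8, 59.3 and 58.2 CPM), with a log2 difference of 0.19 and an adjusted p of 0.999 by edgeR. Atp5d, of the ATP synthase central stalk, followed at 0.17 with the same adjusted p. These vector libraries also enter the comparison with NT under KCl, so the values are not independent of it. Against NT, KO with WT had a median of 0.07 at rest (-0.017 with length trend offsets) and -0.05 under KCl, with 74 and 36 of 90 members positive. At rest the libraries did not overlap for 35 members with higher values (4076 of 20940 genes) and for 5 with lower values (4370 genes). Under KCl these were 6 and 12 members (2894 and 3001 genes). In the 2 states edgeR called 0 members (0.105% and 0.201% of all genes), 2 and 3 members had an unadjusted p under 0.05 (7.88% and 11% of all genes), and DESeq2 called 0 (0.549% and 1.32%). Ndufb2 had the lowest p against NT at rest (0.39 ± 0.135, adjusted p of 0.387 by edgeR), followed by Ndufs3, a core subunit of complex I (0.25, 0.566), and Atp5j2 (0.21, 0.639). Under KCl the lowest p-values were those of Cox6a1 (-0.21 ± 0.0990, adjusted p of 0.434 by edgeR) and the assembly factors Ndufaf7 (0.23, 0.444) and Ndufaf5 (0.23, 0.449).

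The substituted proteins were compared with WT and with vector in the state in which each was sequenced. S586E at rest was first set against WT: the median log2 difference of the members was -0.00, 43 of 90 members were positive, edgeR called 0 members and 0% of all genes, and 4 members, or 4.44%, had an unadjusted p under 0.05 against 12.9% of all genes. DESeq2 called 0 members against 1.51%. Sdhc was at 95.8, 83.3 and 80.9 CPM with S586E and 101 and 97.1 CPM with WT (-0.19 ± 0.0726, SE, adjusted p of 0.272 by edgeR), with no overlap between the groups. Cox6b2, the testis form of its subunit (-0.81 ± 0.319, 0.289), and Cox4i2 (-2.11 ± 0.892, 0.327) followed. Against vector the median was 0.04, and it was -0.043 without S586E replicate 1 and 0.10 without replicate 3. Atp5d had the lowest p (0.25 ± 0.0743, adjusted p of 0.444 by edgeR), followed by the complex I subunits Ndufa9 (-0.16, 0.600) and Ndufa11 (0.21, 0.692). EdgeR called 0 members there against 0.0191% of all genes, 2 members had an unadjusted p under 0.05 against 7.45%, and DESeq2 called 0 against 0.215%. The S586E libraries were uneven: the median member deviated from the mean of all DIV18 libraries by 0.20 in replicate 1, 0.00 in replicate 2 and -0.07 in replicate 3. Without replicate 1 the median against WT was -0.09.

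S586A under KCl had higher member values in CPM than both WT and vector, in all complexes, without a call by edgeR. Against vector, 88 of 90 members were positive and the median log2 difference was 0.28, against -0.02 for all genes. An unadjusted p under 0.05 was reached by 64 members, or 71.1%, all with higher values, against 13% of all genes in either direction and 6.9% with higher values. The adjusted test of edgeR called 0 members and 0.00955% of all genes. DESeq2 called 14 members higher and 0.721% of all genes higher: Atp5a1, Atp5b, Atp5d, Atp5h, Atp5j2, Cox6a1, Cox7a2, Ndufa2, Ndufb7, Ndufb8, Ndufv1, Uqcrc1, Uqcrh and Uqcrq. They include both subunits of the catalytic head of the ATP synthase (Atp5a1 and Atp5b) and the NADH-binding subunit of complex I (Ndufv1), and none of complex II.

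Uqcrh stood at 74.4 and 85.9 CPM with S586A and at 59.8, 59.3 and 58.2 CPM with vector. The groups were apart, and the log2 difference was 0.44 ± 0.0881 (SE) with an adjusted p of 0.107 by edgeR. The same vector libraries were compared with NT and WT above, so the Uqcrh differences are not independent. Ndufv1 stood at 119 and 131 CPM with S586A and at 96.4, 97.5 and 99.9 CPM with vector, apart as well (0.35 ± 0.0749, adjusted p of 0.132 by edgeR). Ndufb8 stood at 77.1 and 83.4 CPM against 62.4, 57.3 and 62.0 CPM, also apart (0.41 ± 0.0880, adjusted p of 0.132). The libraries did not overlap for 68 members, or 75.6%, with higher values (15.9% of all genes), and for 0 members with lower values (16.1% of all genes). By complex the medians were 0.28 (I), 0.15 (assembly factors), 0.19 (II), 0.31 (III), 0.29 (IV) and 0.33 (V). An unadjusted p under 0.05 was reached by 28 of 36 complex I subunits, 3 of 8 assembly factors, 2 of 4 complex II, 7 of 8 complex III, 12 of 17 complex IV and 12 of 17 complex V members.

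Against WT, which shares the S586A libraries with the comparison above, 86 of 90 members were positive with a median of 0.17, against -0.02 for all genes. EdgeR called 0 members and 0% of all genes, 31 members, or 34.4%, had an unadjusted p under 0.05 (8.71% of all genes), and DESeq2 called 0 members against 0.0907%. The lowest p-values were those of Ndufv1 (0.28 ± 0.0747, SE, adjusted p of 0.356 by edgeR), Ndufa2 (0.44 ± 0.124, 0.378) and Ndufa9 (0.25 ± 0.0736, 0.433), all of complex I. The libraries did not overlap for 44 members with higher values (11.9% of all genes) and for 0 with lower values (13.7% of all genes).

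**Figure D3:**
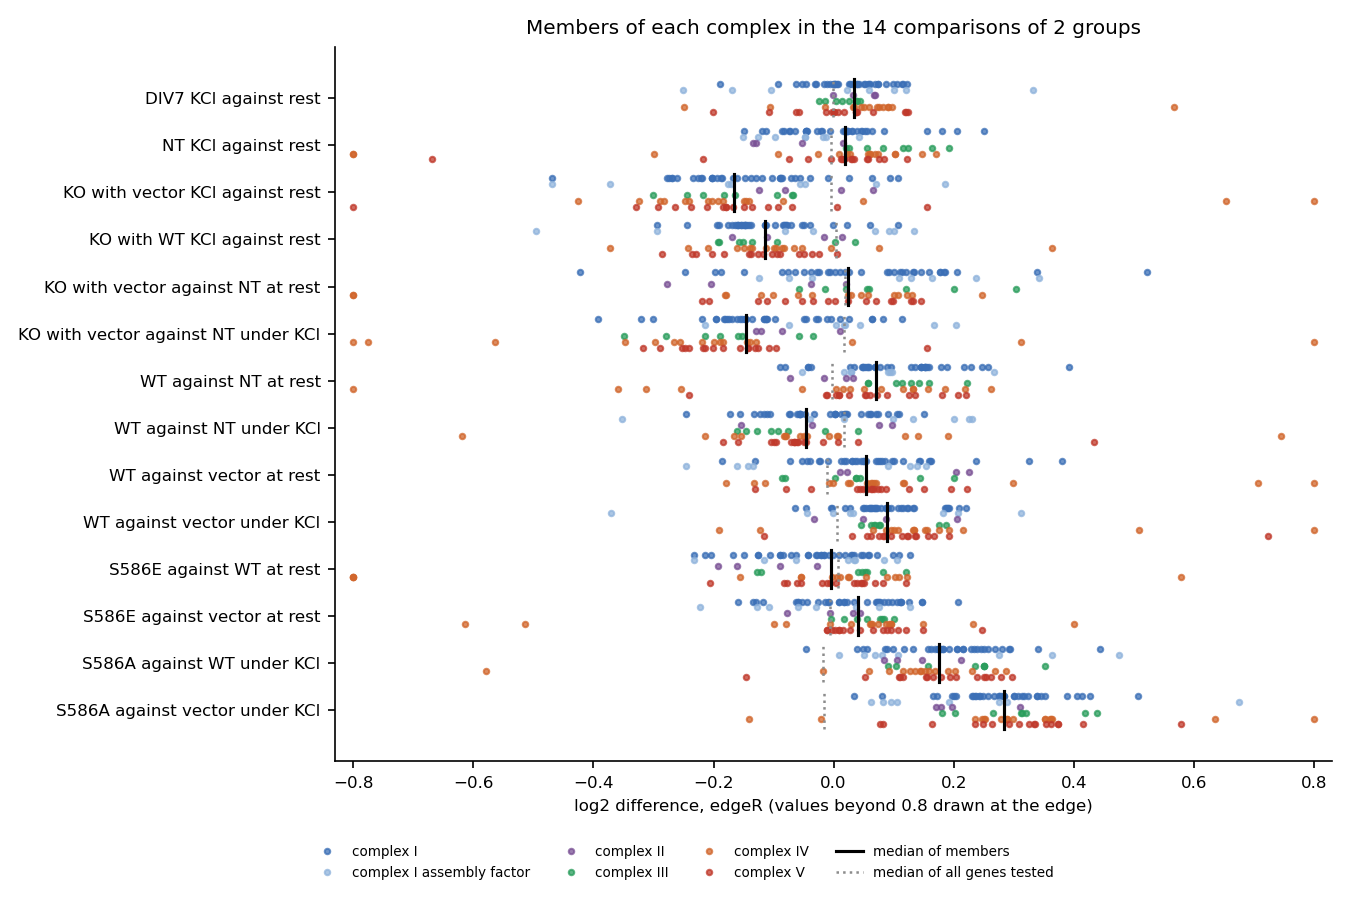
Log2 difference by edgeR (horizontal axis, values beyond 0.8 drawn at the edge) of each member in the 14 comparisons of 2 groups (vertical axis), 1 point per member. Under KCl the members of S586A lie to the positive side of vector (median 0.28) and of WT (0.17), and KO with vector lies to the negative side of NT (-0.15).

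Both comparisons of S586A moved when 1 library was left out and when the trend with transcript length was taken into account. The summed member level was 7745 CPM in replicate 1 and 8698 CPM in replicate 2 (mean 8222 ± 674, SD, n = 2). Without replicate 2 the median against vector was 0.21 and 24 members had an unadjusted p under 0.05, and without replicate 1 they were 0.37 and 65. Against WT the median without replicate 2 was 0.10 with 5 such members, and without replicate 1 it was 0.27 with 43. With offsets for each library's trend with transcript length, the median against vector was 0.11, with 74 of 90 members positive and 18 at an unadjusted p under 0.05. Against WT it was 0.07 with 65 of 90 positive. The length trend of all genes at the members' lengths stood at 0.08 and 0.17 in the S586A libraries and at -0.04, -0.06 and -0.09 in KO with vector under KCl, where the members' own median deviations were 0.06 and 0.23, and -0.10, -0.14 and -0.15. In KO with WT under KCl the signs differed in replicates 1 and 2: the trend stood at 0.04 and 0.02, and the members' median deviations were -0.05 and -0.03. In replicate 3 both were negative, at -0.02 and -0.05. As a share of all deposited TPM, the members took 0.874% and 0.941% with S586A, 1.00%, 0.925% and 0.958% with WT and 0.947%, 0.873% and 0.946% with vector under KCl, so on that scale S586A did not stand above either group. Summed neuronal markers ran from 4309 to 4704 CPM with S586A, 4193 to 4393 with WT and 3954 to 4258 with vector, and their part in the result was not tested.

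**Figure D4:**
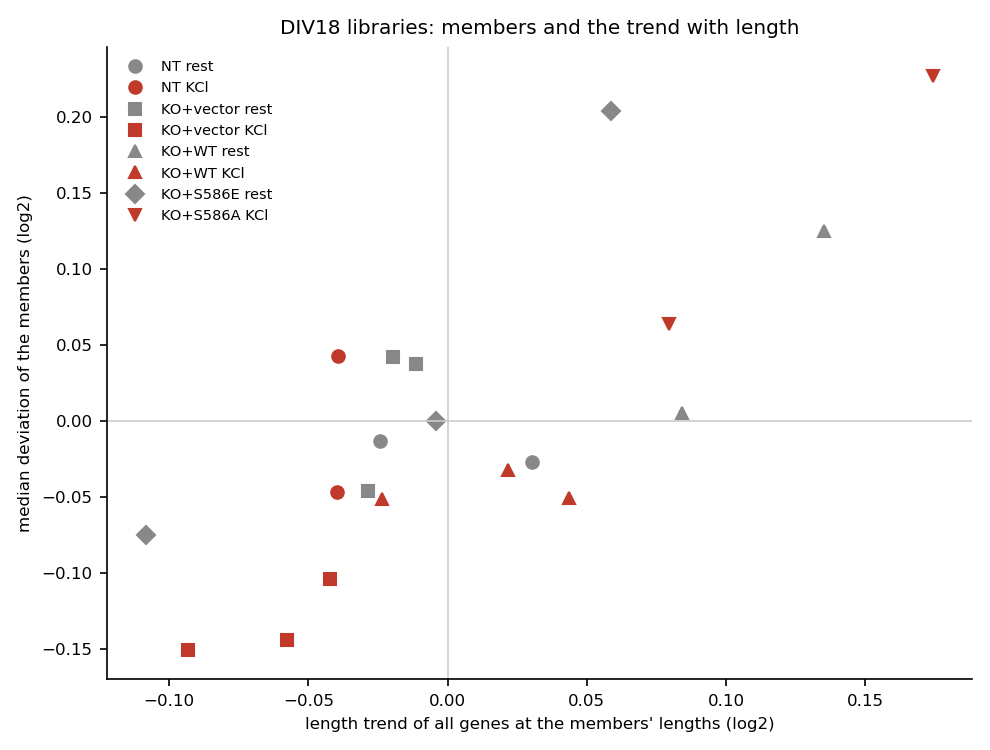
Median log2 deviation of the members in each DIV18 library (vertical axis) against the trend of all genes with transcript length, read at the members' lengths (horizontal axis, log2), 1 point per library. The S586A libraries (0.06 and 0.23) and the KO with vector libraries under KCl (-0.10 to -0.15) lie on opposite sides of 0 on both axes.

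The members with printed promoters were spread over these results. Of the members tested, the 19 with an NRF1 match had a median log2 difference of 0.29 for S586A against vector, and the 53 with a window but no match had 0.28. For the ETS motif the medians were 0.32 (18 members) and 0.28 (54 members). In KO with vector under KCl against rest they were -0.16 and -0.18 for the NRF1 motif, and -0.20 and -0.16 for the ETS motif. Uqcrh, with an ETS match, and Ndufb2, with no match, are plotted with other members by library. No test was made of these medians.

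Genes around the respiratory chain were read from lists of 12 transcriptional regulators, 33 assembly factors of complexes II to V, 21 electron carriers, exchangers and related subunits, 13 genes of the tricarboxylic acid cycle and the 13 protein-coding genes of the mitochondrial genome. At DIV7, where 17% of all genes were called, edgeR called 2 of 12 regulators, 5 of 33 assembly factors and 2 of 21 carriers. The regulator Yy1 rose (from 84.7 to 119 CPM on average, log2 difference 0.49, adjusted p of 0.00125 by edgeR), and Polrmt, the mitochondrial RNA polymerase, fell (-0.31, adjusted p of 0.0321). Of the assembly factors, Ttc19 of complex III rose (0.23, adjusted p of 0.0321 by edgeR), and 4 fell: Coa7 (-0.44), Cox11 (-0.44), Sdhaf2 (-0.29) and Cox19 (-0.23). Of the carriers, the phosphate carrier Slc25a3 rose (0.39, adjusted p of 0.00429 by edgeR) and Ppif, cyclophilin D of the permeability transition pore, fell (-0.57, adjusted p of 0.0148). No gene of the tricarboxylic acid cycle or, in that fit, of the mitochondrial genome was called there.

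In KO with vector against NT, citrate synthase (Cs), the entry enzyme of the tricarboxylic acid cycle, fell at rest (from 300 to 234 CPM on average, -0.36, adjusted p of 0.0148 by edgeR) and under KCl (from 303 to 227 CPM, -0.42, adjusted p of 0.0129). Ogdh, of the 2-oxoglutarate dehydrogenase complex, fell under KCl (-0.50, adjusted p of 0.0303 by edgeR), where the list had a median of -0.26 and 0 of 13 genes were positive. Cox18, an assembly factor of complex IV, fell at rest (-0.41, adjusted p of 0.0426 by edgeR) as the 1 called of 33 listed assembly factors. Over all genes, 5.9% were called at rest and 2.67% under KCl. For S586A under KCl, all 13 genes of the cycle were positive against both WT and vector, and edgeR called none of them. The 13 genes of the mitochondrial genome had a median of -0.37 in KO with vector under KCl against rest, with 0 positive and 0 called by edgeR, and with no low-count filter 11 were called lower. Without resting replicate 3 the median was -0.095 with 2 positive. The mitochondrial chromosome took 8.16% of the counts in that library, 5.50% and 4.20% in the other resting libraries, and from 5.14% to 6.17% with KCl. By edgeR with the settings of the other tests, 0 of the 13 were called in each of the 17 comparisons, while the replicate block called 1 higher and 7 lower at DIV7, and fits with no low-count filter called members of the list in several DIV18 comparisons.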

How the data were processed

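RNA-seq libraries of mouse cortical neurons (24) were deposited as transcript tables with estimated counts, TPM and effective lengths, per the file headers. The submitters' processing notes name FastQC, cutadapt and kallisto, and the genome build and annotation are not given in the sources used here. Each estimated count deposited by the authors is the number of reads given to a transcript, and the TPM deposited by the authors is that number scaled by effective length. Of 142552 transcripts per table, 141429 matched GENCODE M21, and the others (at most 0.467% of a library's counts) were left out.

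Counts of all transcripts of a gene were added and rounded to whole numbers. The test was edgeR 4.0.16 (quasi-likelihood F test, two-sided, TMM, filterByExpr, Benjamini-Hochberg over all genes tested) in R 4.3.3, called at an adjusted p under 0.05. The DIV7 libraries were fitted alone (19822 genes, 2 residual degrees of freedom), the DIV18 libraries together in 8 groups (20940 genes, 12 residual degrees of freedom), and the comparison of responses between days with all 24 libraries (22459 genes). The biological coefficient of variation was 6.44%, 14.6% and 13.5% in these fits. Depth limits the precision of members with few counts, and intervals from counts cover counting error only. On simulated counts with 100 genes changed by 1 on the log2 scale and 100 by 2, edgeR recovered 77% and 94% in the DIV7 comparison (39819 genes simulated, 8.06% of calls false) and 66% and 94% in the comparison of resting KO with vector and NT (41147 simulated, 3.61% false). No change under 1 was simulated, so these rates do not apply to the smaller differences reported for most members.

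The members and lists were chosen with earlier results of these data known. Named in each comparison are the called members and, where fewer than 3 were called, those with the lowest p up to 3, then the member with the highest TPM of each complex, the paralogues and the called genes of the other lists. The alternatives tried were DESeq2 1.42.0, median-of-ratios size factors, no low-count filter, the replicate block, effective length offsets, length trend offsets, protein-coding transcripts only, a fit of the compared groups alone and leaving out each library. Same-numbered libraries deviated together, with each correlation over 0.1, for KO with vector and KO with WT under KCl (0.106, 0.114 and 0.236) and for KO with vector and S586E at rest (0.293, 0.103 and 0.291). The same held for NT and KO with WT at rest (0.104 and 0.104) and under KCl (0.1106 and 0.1205). The pairing changed no call of a member in these comparisons. Marker lists of other cell types were read for levels and calls.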

Additional observations from a re-analysis of the deposited data

Results flagged for a closer look

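The response of Yy1, a transcription factor known to bind promoters of respiratory chain genes, differed between DIV7 and DIV18 NT by edgeR's interaction test. Its mean level was 84.7 CPM at rest and 119 CPM with KCl at DIV7, and 66.2 and 67.7 CPM in NT at DIV18. The difference between the responses was 0.47 on the log2 scale (adjusted p of 0.0213 by edgeR), with 2 libraries per group. The DIV7 libraries are poly(A) RNA and the DIV18 libraries rRNA-depleted total RNA. The DIV7 cultures were wild type with 0.1% DMSO, and the NT cultures carried a non-targeting guide and had no DMSO. Age, library type, guide and DMSO therefore cannot be told apart.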

How the results depend on the processing

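Where edgeR called 0 members in the DIV7 comparison, the replicate block called 4, length trend offsets 2, and median-of-ratios size factors, no low-count filter, effective length offsets and protein-coding transcripts only called 1 each. For KO with vector against NT at rest (3 called), effective length offsets called 1 and the compared groups alone 0, and leaving out 1 library gave 0 to 2. For the same comparison under KCl (1 called), DESeq2 called 4, no filter 5, the replicate block 4, length trend offsets 2, and effective length offsets and protein-coding transcripts only 0, and leaving out 1 library gave 0 to 1. Without the filter, 1 member was called for WT against vector at rest, 2 for S586E against WT, 1 for S586A against WT and 18 for S586A against vector, where DESeq2 called 14. Except for DESeq2, the share of all genes called under these settings is not given. The counts therefore cannot be read as more or fewer than over all genes.

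With length trend offsets the members' median was -0.017 for KO with WT under KCl against rest, -0.069 for WT against vector at rest, -0.017 for WT against NT at rest, 0.11 for S586E against WT, 0.069 for S586A against WT and 0.11 for S586A against vector. Leaving out 1 library gave medians of 0.012 to 0.054 at DIV7, -0.092 to 0.063 for S586E against WT, -0.043 to 0.10 for S586E against vector, 0.10 to 0.27 for S586A against WT and 0.21 to 0.37 for S586A against vector. The cause was not tested. Ndufa1 in the NT response was 0.25 with all libraries, -0.015 without NT replicate 2 under KCl and 0.47 without replicate 1 under KCl. Sdhc in the difference of the WT and vector responses was -0.18 without offsets and 0.026 with effective length offsets, and neither was called under these settings.

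The summed level of complex I at DIV7 was 1827 CPM with median-of-ratios size factors. With protein-coding transcripts only, the summed levels were 1815 CPM (complex I), 113.6 (assembly factors), 448.3 (complex II) and 1399 (complex IV) in resting DIV7, and 1770 (complex I), 93.2 (assembly factors) and 514.6 (complex II) in resting NT. Groups of 2 or 3 libraries limit what could be called, and Cox4i2, Cox7a1, Atp5g2 and Ndufa4l2 rest on few counts. Where same-numbered libraries share only a number, the replicate block changed the calls of members at DIV7 and for KO with vector against NT under KCl, as given above. The pairing of replicate numbers in KO with vector and S586E moved the calls over all genes from 4 to 14 and called 0 members.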
